A study of Rattus norvegicus with 21 samples.

Results

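Genes of apoptosis, necroptosis and pyroptosis were followed through 7 groups of rat heart libraries after coronary ligation, with and without reperfusion. The set was named by symbol, with earlier results of these data known: the kinases Ripk1 and Ripk3, the membrane-rupturing Mlkl, the gasdermins Gsdmd and Gsdme, the protease Casp8, the BCL2 relatives Bax and Bbc3, and Ppif, which encodes cyclophilin D. Of these 9 symbols, 7 had a row among the 17085 gene symbols, and all 7 were among the 11742 genes with enough counts to be tested. Gsdme and Bbc3 were not analysed here.

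The libraries were bulk RNA sequencing of heart tissue of Sprague Dawley rats, labelled infarct zone in every group, Sham controls included, with 3 libraries a group. MI24h hearts had a permanent tie of the left anterior descending artery and were taken at 24 h. In MI1h_R and MI6h_R the tie was opened after 1 h and 6 h, and these hearts too were taken 24 h after ligation. MI24h_F, MI1h_F and MI6h_F are the same injuries with an added F, and the titles of the reperfused ones give 23 h and 18 h of reperfusion. The labels do not spell out F; the design text names pretreatment with fenofibrate, a drug that activates the nuclear receptor PPARα, and no library is labelled Sham with F. The titles number the libraries with F from 1 to 5 and the others from 11 to 41. Whether both sets were prepared together is not given in the sources used here, so F and any such difference cannot be told apart.

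Cells of an infarct can die by several programmed routes. In apoptosis BAX and its relative BAK1 open the outer mitochondrial membrane, cytochrome c escapes and caspases dismantle the cell, while caspase-8 starts the same end from death receptors at the cell surface. In necroptosis, which caspase-8 holds back, RIPK1 and RIPK3 assemble and RIPK3 phosphorylates MLKL, which ruptures the plasma membrane. In pyroptosis inflammasome caspases cut gasdermin D, whose freed part forms a pore that releases interleukin-1β. Cyclophilin D favours the opening of the mitochondrial permeability transition pore, an event long studied in reperfused heart muscle. These proteins are switched by cleavage, phosphorylation or assembly, which RNA levels do not show.

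Promoter stretches were at hand for 4 of the 7 genes. Those of the necroptosis kinases and of their target are shown because Ripk3 and Ripk1 rose in all 6 injured groups while Mlkl was called in 1 of them. Each is the 250 bases before the annotated start, 5′ to 3′ on the gene's strand, from RefSeq on the build GRCr8, with matches to the motifs named after them in capitals. Ripk3 lies at chr15:33262026-33262275, Ripk1 at chr17:31077168-31077417 and Mlkl at chr19:56213859-56214108, all on the minus strand.
Ripk3: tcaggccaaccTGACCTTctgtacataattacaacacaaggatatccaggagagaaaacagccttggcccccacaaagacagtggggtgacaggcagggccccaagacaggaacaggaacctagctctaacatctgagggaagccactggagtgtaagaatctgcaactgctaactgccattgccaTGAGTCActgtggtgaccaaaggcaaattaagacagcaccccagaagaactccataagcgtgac
Ripk1: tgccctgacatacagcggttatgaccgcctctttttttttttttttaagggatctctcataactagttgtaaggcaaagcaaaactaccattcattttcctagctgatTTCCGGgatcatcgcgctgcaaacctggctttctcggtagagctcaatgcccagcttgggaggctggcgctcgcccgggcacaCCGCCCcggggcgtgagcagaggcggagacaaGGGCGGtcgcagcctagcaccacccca
Mlkl: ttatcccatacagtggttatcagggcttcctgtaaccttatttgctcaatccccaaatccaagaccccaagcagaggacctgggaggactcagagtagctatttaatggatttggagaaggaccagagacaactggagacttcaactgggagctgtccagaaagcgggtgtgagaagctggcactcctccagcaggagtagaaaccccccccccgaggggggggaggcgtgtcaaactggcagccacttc
The capitals in Ripk3 are TGACCTT at bases -239 to -233 from the start, which is the ERR half-site AAGGTCA on the other strand, and TGAGTCA at -64 to -58, a match to the AP-1 motif TGANTCA. In Ripk1 they are TTCCGG at -142 to -137, which is the ETS motif CCGGAA on the other strand, and matches to the GC box GGGCGG on either strand at -59 to -54 and -27 to -22. The Mlkl stretch held none of these, nor the CCAAT box or the core of the interferon-stimulated response element. Of all 33469 promoters over the same length and both strands, 6.34% held TGANTCA, 3.99% AAGGTCA, 12.6% CCGGAA, 30.5% GGGCGG, 34.0% CCAAT and 3.41% the interferon element. These are matches of letters in a window and not measured sites.

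Total counts per library ran from 12208041 to 18393795. Genes of the mitochondrial genome took 33.5% to 38.5% of the counts in Sham and 11.3% to 20.2% in the 18 injured libraries. The TMM factors, which rescale libraries for such shifts in composition, were 0.535 to 0.677 in Sham and 0.996 to 1.17 elsewhere. Levels are given as CPM, counts scaled to a common library size after TMM. The summed level of 11 cardiomyocyte markers was 64100 to 126000 CPM in Sham and 2830 to 17100 CPM in the injured libraries. That of 11 neutrophil markers was 25.7 to 94.7 CPM against 286 to 3480 CPM, and that of 11 monocyte and macrophage markers 801 to 3510 CPM against 3860 to 11300 CPM. No marker of these lists was at 0 in every library of a group. In bulk tissue fewer cells of a type and less RNA per cell cannot be told apart. Log2 fold changes carry the standard error of the edgeR fit, and "rose", "fell" and "called" mean an edgeR adjusted p under 0.05 over all genes tested.

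Against Sham, Ripk1, Ripk3, Casp8 and Bax rose and Ppif fell in each of the 3 groups without F, while Mlkl and Gsdmd were not called. That is 5 of 7 genes, where edgeR called 54.3% of all genes in MI24h, 49.5% in MI1h_R and 57.2% in MI6h_R. The 4 genes that rose stand beside 28.0%, 25.4% and 29.3% of all genes that rose, and the 1 that fell beside 26.2%, 24.1% and 28.0%. The median log2 fold change of the 7 genes was 1.07 in MI24h, 1.09 in MI1h_R and 0.95 in MI6h_R, beside 0.07, 0.06 and 0.06 for all genes. The comparisons share the 3 Sham libraries. The scaling matters for every comparison with Sham: with library size alone in place of TMM the median of all genes became 0.80 to 0.91 over the 6 comparisons, and on the log2(TPM + 1) scale 0.72 to 0.99. Of all genes called, 49.6% to 51.7% rose with TMM, 76.6% to 86.4% with library size alone and 82.2% to 90.6% with TPM. In MI24h, Ripk1, Ripk3, Casp8 and Bax had 1.79, 3.46, 2.07 and 2.25 with library size alone, all called.

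**Figure D1:**
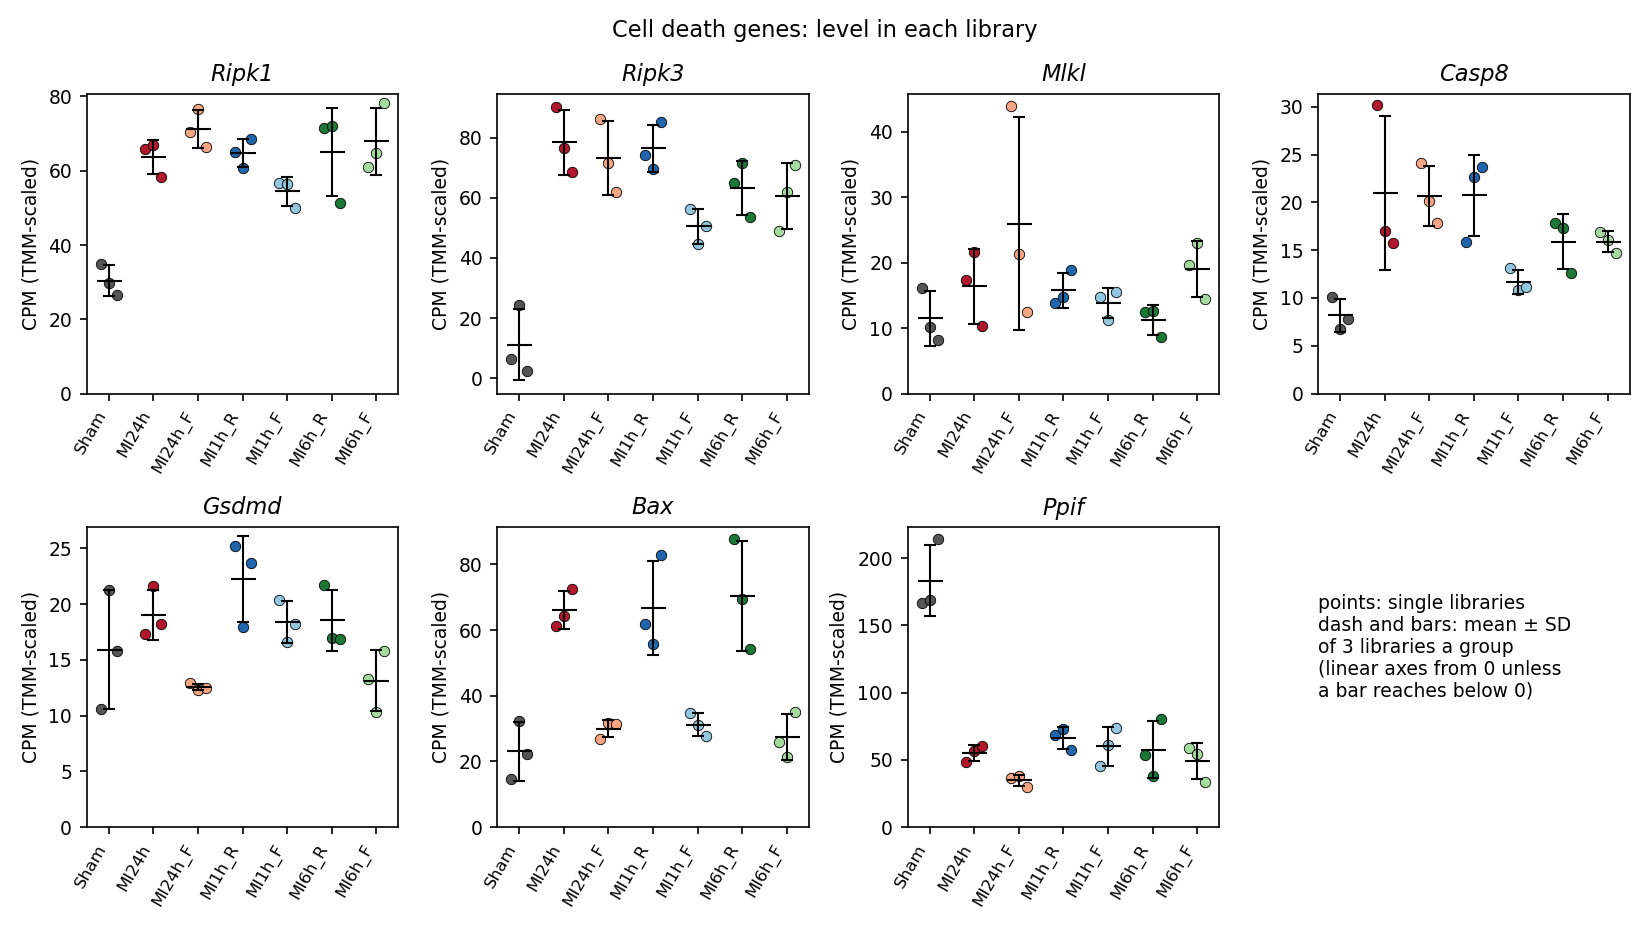
Level of each of the 7 genes (CPM) in the 21 libraries, by group, with points for libraries and the mean and SD of 3 libraries. All injured Ripk1 and Ripk3 points lie above Sham and all Ppif points below it, and Bax is at 54.1 to 87.7 CPM in the injured groups without F and at 21.2 to 34.9 CPM in those with F.

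Ripk3, the kinase that defines necroptosis, had the highest log2 fold change of the 7 genes in every comparison with Sham. Its level was 6.52, 24.5 and 2.52 CPM in Sham replicates 11, 31 and 41, and 90.1, 76.4 and 68.7 CPM in MI24h. It was 74.3, 69.7 and 85.1 CPM in MI1h_R and 64.8, 71.4 and 53.6 CPM in MI6h_R. All 9 injured libraries stood above the highest Sham library, replicate 31, which itself stood well above the other two. The log2 fold change was 2.80 ± 0.46 in MI24h, 2.76 ± 0.46 in MI1h_R and 2.49 ± 0.46 in MI6h_R (edgeR adjusted p = 6.81e-05, 0.000105 and 0.000172). Without Sham replicate 31 the values were 4.12, 4.08 and 3.83. That library also had the highest Sham sum of monocyte and macrophage markers, 3510 CPM beside 801 and 827 CPM, and the part of these cells in the Ripk3 result was not tested.

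Ripk1, the kinase that recruits RIPK3, rose by less and varied less between libraries. It ran from 26.5 to 34.8 CPM in Sham, 58.4 to 66.9 CPM in MI24h, 60.8 to 68.5 CPM in MI1h_R and 51.3 to 72.1 CPM in MI6h_R, with no overlap between Sham and the others. The log2 fold changes were 1.07 ± 0.15, 1.09 ± 0.15 and 1.09 ± 0.15 (edgeR adjusted p = 1.58e-05, 2.01e-05 and 1.05e-05). Per length, the ratio of Ripk3 TPM to Ripk1 TPM was 0.233 to 2.01 in Sham, 2.81 to 3.36 in MI24h, 2.81 to 3.06 in MI1h_R and 2.24 to 2.57 in MI6h_R. The highest Sham ratio lay below the lowest of these injured groups.

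Mlkl, the membrane-rupturing target of RIPK3, was not called in these 3 comparisons. It had 16.2, 10.1 and 8.12 CPM in Sham and 17.3, 21.6 and 10.3 CPM in MI24h. It had 13.8, 14.7 and 18.8 CPM in MI1h_R and 12.5, 12.6 and 8.65 CPM in MI6h_R, and each group overlapped with Sham. The log2 fold changes were 0.52 ± 0.38, 0.46 ± 0.38 and -0.03 ± 0.38 (edgeR adjusted p = 0.257, 0.323 and 0.958). They depend on the scaling: with library size alone they were 1.24, 1.21 and 0.80, of which the values for MI24h and MI1h_R were called, and on the log2(TPM + 1) scale 1.3, 1.19 and 1.02, all called. Beside these, the median of all genes in MI6h_R was 0.06 with TMM, 0.91 with library size alone and 0.99 on the TPM scale, so the sign of the Mlkl value turned as that median shifted. The ratio of Ripk3 TPM to Mlkl TPM, which no such scaling moves, was 0.253 to 1.98 in Sham, 2.89 to 5.45 in MI24h, 3.68 to 4.38 in MI1h_R and 4.21 to 5.05 in MI6h_R. It was higher in all 9 injured libraries than in any Sham library.

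Casp8, the initiator caspase of death receptors and the brake on necroptosis, was 10.1, 6.73 and 7.79 CPM in Sham and 30.2, 17 and 15.7 CPM in MI24h. It was 15.9, 22.6 and 23.7 CPM in MI1h_R and 17.8, 17.3 and 12.6 CPM in MI6h_R. All 9 injured libraries were above all Sham libraries, and the highest was a single library of MI24h. On the log2 scale the rises were 1.35 ± 0.25, 1.34 ± 0.25 and 0.95 ± 0.25 (edgeR adjusted p = 0.000199, 0.000286 and 0.0033).

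The genes around these kinases moved in both directions. Of 17 tested genes of death receptor signalling, 6 rose and 4 fell in MI24h, 5 rose and 2 fell in MI1h_R and 6 rose and 5 fell in MI6h_R, with medians of 0.22, 0.21 and 0.32. Over all genes 28.0%, 25.4% and 29.3% rose and 26.2%, 24.1% and 28.0% fell, and these shares also stand beside the lists below. Tnfrsf1a, the main TNF receptor, rose by 1.45 ± 0.20 in MI24h, and Birc3, a ubiquitin ligase of its signalling complex, by 1.65 ± 0.24. Cyld, which strips ubiquitin from RIPK1, rose by 1.15 ± 0.23. Rbck1, a part of the linear ubiquitin ligase, fell by 0.96 ± 0.14. With library size alone it had -0.22 and was not called, and on the TPM scale 0.05. Tnfsf10 fell by more, with -3.82 in MI24h and -3.81 in MI6h_R. It stayed called with library size alone (-3.07 and -3.01) and on the TPM scale (-2.68 and -2.53). Without Sham replicate 11 it had -2.91 and -2.89. It was not among the 2 genes that fell in MI1h_R. With library size alone 11 genes of the list rose and 1 fell in MI24h, beside 6484 and 1504 of all 11742 genes.

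Of 13 further genes of necroptosis, 4 rose and 5 fell in MI24h, 5 rose and 3 fell in MI1h_R and 5 rose and 6 fell in MI6h_R. Their median was 0.57, 0.33 and -0.55, and the last was 0.31 with library size alone and 0.64 on the TPM scale. It lay below the median of all genes in MI6h_R under each, which was 0.06, 0.91 and 0.99. Ripk2, a kinase of the same family, rose by 1.29 ± 0.22 in MI24h, and Tlr4, the endotoxin receptor, by 1.09 ± 0.25. Ppm1b, a phosphatase that acts on RIPK3, fell by 1.12 ± 0.20, but had -0.38 with library size alone and -0.05 on the TPM scale, neither of them called. Camk2d fell, with -1.31 in MI24h, -0.65 in MI1h_R and -1.09 in MI6h_R. With library size alone it had -0.58, 0.10 and -0.24, of which only that for MI24h was called. On the TPM scale it had -0.16, 0.27 and 0.22, none called.

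**Figure D2:**
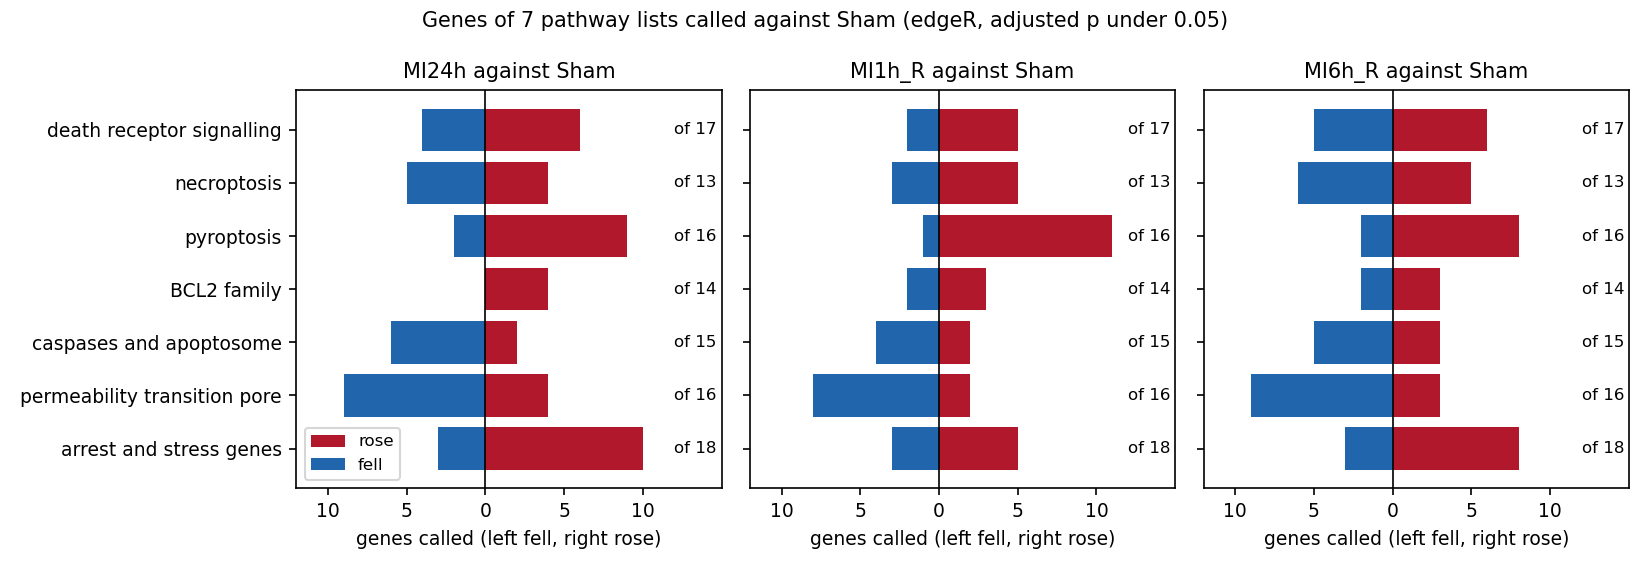
Number of genes called against Sham in 7 lists of pathway genes, none of them among the 7 genes described, in 3 comparisons, with rises to the right and falls to the left of 0. Pyroptosis has 9, 11 and 8 rises and 2, 1 and 2 falls, and the permeability transition pore 4, 2 and 3 rises and 9, 8 and 9 falls. Of all genes 28.0%, 25.4% and 29.3% rose and 26.2%, 24.1% and 28.0% fell.

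Gsdmd, the executioner of pyroptosis, ran from 10.6 to 21.3 CPM in Sham, 17.3 to 21.6 CPM in MI24h, 17.9 to 25.2 CPM in MI1h_R and 16.9 to 21.7 CPM in MI6h_R. Every injured group overlapped with Sham. The log2 fold changes of 0.26 ± 0.22, 0.48 ± 0.22 and 0.22 ± 0.22 were not called (edgeR adjusted p = 0.34, 0.082 and 0.415). With library size alone they were 1.00, 1.26 and 1.07 and on the log2(TPM + 1) scale 1.17, 1.27 and 1.31, all called. The MI1h_R value was called with TMM without MI1h_R replicate 31 (0.62, edgeR adjusted p = 0.0448) and without Sham replicate 31 (0.78, edgeR adjusted p = 0.0102).

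Inflammasome sensors and the cytokine that leaves through the gasdermin D pore rose. Of 16 tested genes of pyroptosis, 9 rose and 2 fell in MI24h, 11 rose and 1 fell in MI1h_R and 8 rose and 2 fell in MI6h_R, with medians of 0.96, 0.98 and 0.60. Nlrp3, the sensor of the best-known inflammasome, rose by 2.57 ± 0.36, 1.69 ± 0.35 and 2.32 ± 0.35 in the 3 groups. Nlrc4, another inflammasome sensor, rose by 2.96 ± 0.47 in MI24h and had 2.07 without MI24h replicate 11. Il1b, which encodes interleukin-1β, rose by 3.54 ± 0.52, 2.74 ± 0.51 and 3.06 ± 0.51. Without Sham replicate 31, Il1b had 4.86, 4.05 and 4.4, and Nlrp3 had 2.92 in MI6h_R. In the other direction Txnip fell, with -1.23, -1.89 and -1.31 in the 3 groups. With library size alone it had -0.45, -1.06 and -0.39, of which only that for MI1h_R was called. Casp12 fell in MI24h (-0.88) and MI6h_R (-1.17), and had -0.15 and -0.32 with library size alone, not called. The neutrophil and the monocyte and macrophage marker sums were higher in every injured library than in Sham, and their part in these values was not tested.

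Bax, the pore former of the outer mitochondrial membrane, rose in each injury without F. Its level was 14.5, 32.2 and 22.4 CPM in Sham and 61.3, 64.3 and 72.5 CPM in MI24h. It was 61.7, 55.7 and 82.7 CPM in MI1h_R and 87.7, 69.3 and 54.1 CPM in MI6h_R. All 9 injured libraries stood above the highest Sham library. The log2 rises were 1.52 ± 0.25, 1.53 ± 0.25 and 1.61 ± 0.26 (edgeR adjusted p = 7.46e-05, 9.41e-05 and 3.71e-05).

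Among 14 other tested genes of the BCL2 family, 4 rose and 0 fell in MI24h, 3 rose and 2 fell in MI1h_R and 3 rose and 2 fell in MI6h_R. Their medians were 0.26, 0.07 and 0.32, or 0.26, 0.02 and 0.32 with Pmaip1, which had no count in Sham, set to its bound of 3 counts. Bak1, the partner of BAX in the membrane, rose by 1.21 ± 0.15, 1.12 ± 0.15 and 1.07 ± 0.15. Bid, which caspase-8 cuts to activate BAX, rose by 2.15 ± 0.31, 2.06 ± 0.31 and 2.55 ± 0.31, and had 2.78, 2.69 and 3.20 without Sham replicate 31. Bnip3, a BH3 gene of mitophagy and cell death, fell by 2.64 ± 0.37 in MI1h_R and fell by 2.60 ± 0.37 in MI6h_R, and had -0.80 ± 0.35 in MI24h (edgeR adjusted p = 0.0617). The ratio of Bax TPM to the TPM of Bcl2l1, whose product BCL-XL restrains BAX, was 0.479 to 0.905 in Sham and 1.4 to 2.14, 1.46 to 3.04 and 1.27 to 1.94 in the 3 injured groups, with no overlap. The ratio of Bax TPM to Bak1 TPM was 1.5 to 2.88 in Sham and 2.41 to 3.24, 2.9 to 3.74 and 2.83 to 4.02 in these groups. It overlapped with Sham in MI24h and MI6h_R.

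Downstream of the outer membrane, 2 rose and 6 fell in MI24h of 15 tested genes of the list caspases and apoptosome, 2 rose and 4 fell in MI1h_R and 3 rose and 5 fell in MI6h_R, with medians of -0.13, 0.00 and -0.04. The falls included genes of mitochondrial proteins: Cycs, cytochrome c, fell, with log2 fold changes of -2.61 ± 0.34, -2.40 ± 0.34 and -2.7 ± 0.35, although its counts are identical to those of another symbol. Aifm1, a flavoprotein of the inner membrane, fell, with log2 fold changes of -1.94 ± 0.20, -1.53 ± 0.20 and -2.09 ± 0.20, and Endog, a mitochondrial nuclease, fell with -2.86 ± 0.41, -3.22 ± 0.42 and -3.27 ± 0.41. With library size alone 9, 11 and 10 genes of this list rose and 3 fell in each comparison. Of all 11742 genes, 6484, 6597 and 6878 rose and 1504, 1273 and 1510 fell under that setting.

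A further list held genes of growth arrest and stress, among them Cdkn1a, Gadd45a, Phlda3, Aen, Plk3, Sesn1, Perp and Ccng1. Of its 18 tested genes, 10 rose and 3 fell in MI24h, 5 rose and 3 fell in MI1h_R and 8 rose and 3 fell in MI6h_R, with medians of 0.77, 0.32 and 0.81. Plk3, a stress kinase, rose by 2.84 ± 0.26, 2.71 ± 0.26 and 2.99 ± 0.26. In the other direction Sesn1, a sestrin, fell, with log2 fold changes of -3.28 ± 0.29, -2.67 ± 0.28 and -2.87 ± 0.28, as did Perp with -2.63 ± 0.39, -2.87 ± 0.40 and -3.31 ± 0.40 and Ccng1, cyclin G1, with -2.13 ± 0.29, -1.64 ± 0.28 and -1.97 ± 0.29.

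Ppif was the 1 gene of the 7 that fell. Its level was 167, 169 and 214 CPM in Sham and 48.2, 56.5 and 60.3 CPM in MI24h. It was 68.2, 73.3 and 57.0 CPM in MI1h_R and 53.8, 38.2 and 80.3 CPM in MI6h_R. Every injured library stood below every Sham library in CPM; in TPM, MI6h_R replicate 31 with 73.8 lay within the Sham range of 69.9 to 80.8. The log2 fold changes were -1.73 ± 0.25, -1.47 ± 0.25 and -1.67 ± 0.25 (edgeR adjusted p = 1.96e-05, 0.000129 and 2.4e-05), and -0.98, -0.69 and -0.81 with library size alone and -0.68, -0.56 and -0.50 on the log2(TPM + 1) scale, all called. Ppif moved with the cardiomyocyte markers, of which all 11 fell in MI24h, and by less than their sum: Ppif per 1000 CPM of these markers was 1.7 to 2.63 CPM in Sham, 5.42 to 6.48 CPM in MI24h, 5.55 to 5.99 CPM in MI1h_R and 8.14 to 10.3 CPM in MI6h_R. The part of cell composition in the fall was not tested.

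The Ppif promoter is shown as that of the gene that fell. It lies at chr16:1263751-1264000 on the plus strand of GRCr8, with an ETS match at -225 to -220 and a CCAAT box at -79 to -75 in capitals, and has none of the Ripk3 matches.
Ppif: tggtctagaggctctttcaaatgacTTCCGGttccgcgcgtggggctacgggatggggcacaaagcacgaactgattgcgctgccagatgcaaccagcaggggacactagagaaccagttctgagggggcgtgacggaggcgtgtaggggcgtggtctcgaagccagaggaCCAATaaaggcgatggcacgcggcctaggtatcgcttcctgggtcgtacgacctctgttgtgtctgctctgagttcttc

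The other genes of the permeability transition pore fell more often than they rose with TMM. Of 16 tested, 4 rose and 9 fell in MI24h, 2 rose and 8 fell in MI1h_R and 3 rose and 9 fell in MI6h_R, with medians of -1.02, -0.68 and -1.17. With library size alone 7 rose and 7, 6 and 7 fell, beside 6484, 6597 and 6878 rises and 1504, 1273 and 1510 falls among all 11742 genes. The medians of the list were then -0.26, 0.09 and -0.29, and on the TPM scale 0.04, 0.18 and 0.10, so that the sign turned with the scaling. The median of all genes moved as well, from 0.07, 0.06 and 0.06 with TMM to 0.80, 0.82 and 0.91 with library size alone and 0.83, 0.72 and 0.99 on the TPM scale, and the median of the list lay below it in each of these 9 cases. Atp5mc1, a subunit of the ATP synthase ring, fell, with log2 fold changes of -2.75 ± 0.27, -2.51 ± 0.27 and -3.15 ± 0.28, and Vdac3, a channel of the outer membrane, fell with -2.05 ± 0.20, -1.64 ± 0.19 and -2.11 ± 0.20. Slc8b1, the mitochondrial sodium-calcium exchanger, rose by 1.53 ± 0.28, 1.49 ± 0.28 and 2.03 ± 0.28. These 3 genes were called in the same direction with library size alone and on the TPM scale.

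**Figure D3:**
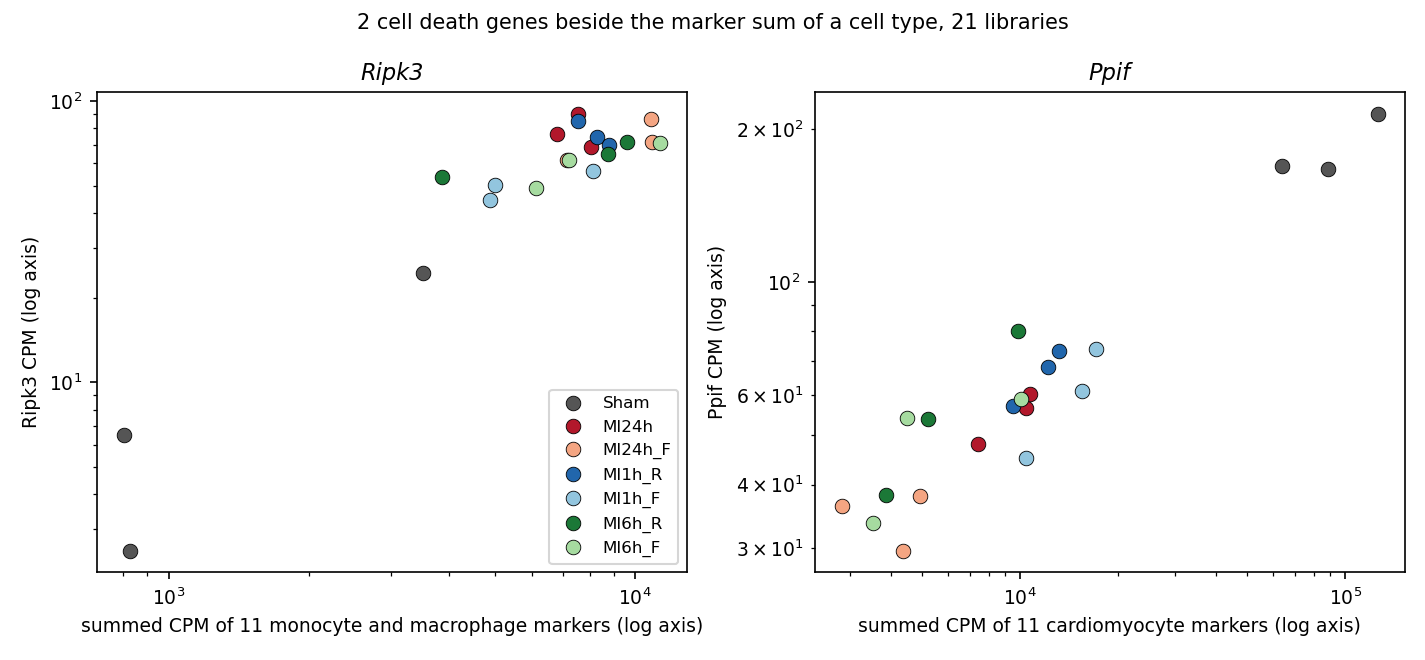
Ripk3 against the summed level of 11 monocyte and macrophage markers, and Ppif against that of 11 cardiomyocyte markers, in CPM on log axes, with a point for each of 21 libraries. Sham replicate 31, at 3510 CPM of monocyte and macrophage markers and 24.5 CPM of Ripk3, lies between the other Sham libraries and the injured ones.

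Reperfusion was compared with permanent ligation, and early with late reperfusion. None of the 7 genes was called by edgeR in MI1h_R against MI24h, in MI6h_R against MI24h or in MI1h_R against MI6h_R, where 4.32%, 0.502% and 2.41% of all genes were. None of the 7 had an unadjusted p under 0.05, beside 2465, 996 and 2586 of all 11742 genes. DESeq2 and limma on TPM called none of the 7 either. The log2 differences lay between -0.05 and 0.27 for MI1h_R against MI24h, between -0.54 and 0.09 for MI6h_R against MI24h and between -0.08 and 0.49 for MI1h_R against MI6h_R. With standard errors of 0.15 for Ripk1 to 0.43 for Ripk3, differences of that size were not detectable in 3 libraries a group, and this does not show that the genes stood at equal levels.

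Of the 109 tested genes in the 7 lists, 1 rose and 6 fell in MI1h_R against MI24h, 2 fell in MI6h_R against MI24h, and 1 rose and 1 fell in MI1h_R against MI6h_R. Of all 11742 genes, 177 rose and 330 fell, 13 rose and 46 fell, and 148 rose and 135 fell in the same comparisons. Bnip3 was lower in both reperfused groups than in MI24h, with -1.84 ± 0.36 in MI1h_R (edgeR adjusted p = 0.0083) and -1.80 ± 0.36 in MI6h_R (edgeR adjusted p = 0.0236). The first was lost without MI24h replicate 11, and the second without MI24h replicate 11 or 41 or MI6h_R replicate 21 or 31. Cdkn1a, the inhibitor that arrests the cell cycle, fell by 1.44 ± 0.28 in MI1h_R against MI24h, and this was lost without MI1h_R replicate 31 or MI24h replicate 11. With the fit run on only the groups compared, 0 of all 11742 genes were called in MI1h_R against MI24h, Bnip3 and Cdkn1a included.

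In the groups with F, compared with the same Sham libraries, Ripk1 and Ripk3 rose and Ppif fell in all 3. Counting every gene, 5 of 7 were called in MI24h_F, 3 in MI1h_F and 4 in MI6h_F, beside 60.8%, 48.2% and 57.2% of all genes. Those that rose were 4, 2 and 3, beside 30.7%, 23.9% and 28.6%, and 1 fell in each, beside 30.1%, 24.2% and 28.5%. The medians of the 7 genes were 1.18, 0.43 and 0.73.

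Ripk3 was 86.2, 71.7 and 61.9 CPM in MI24h_F, 56.4, 44.5 and 50.5 CPM in MI1h_F and 49.0, 61.8 and 70.9 CPM in MI6h_F, with log2 fold changes against Sham of 2.7 ± 0.46, 2.16 ± 0.46 and 2.43 ± 0.46. Without Sham replicate 31 these were 4.05, 3.50 and 3.77. Ripk1 ran from 66.5 to 76.6 CPM, 50.0 to 56.8 CPM and 61.1 to 78.2 CPM in the same groups, with 1.23 ± 0.15, 0.84 ± 0.15 and 1.16 ± 0.15. For both kinases all 9 libraries with F stood above Sham. Casp8 was 24.1, 20.1 and 17.8 CPM in MI24h_F, 13.1, 10.8 and 11.1 CPM in MI1h_F and 16.9, 16.1 and 14.7 CPM in MI6h_F. It rose in MI24h_F by 1.33 ± 0.25 and in MI6h_F by 0.95 ± 0.25. In MI1h_F it had 0.51 ± 0.25 (edgeR adjusted p = 0.102), or 0.69 (edgeR adjusted p = 0.0482) without Sham replicate 11, and it was called there with library size alone and on the TPM scale.

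Mlkl was 44.0, 21.3 and 12.5 CPM in MI24h_F, 14.8, 11.2 and 15.5 CPM in MI1h_F and 19.7, 23 and 14.5 CPM in MI6h_F. The rise in MI24h_F, 1.18 ± 0.38 (edgeR adjusted p = 0.0118), rests on replicate 1 with 44.0 CPM, and the group overlapped with Sham. It was 0.56 (edgeR adjusted p = 0.171) without that library and 1.01 (edgeR adjusted p = 0.0505) without Sham replicate 41, and 1.11 (edgeR adjusted p = 0.0873) with only the groups compared. The values in MI1h_F and MI6h_F were 0.27 ± 0.38 and 0.73 ± 0.38 (edgeR adjusted p = 0.579 and 0.104), and the latter was 1.07 (edgeR adjusted p = 0.0359) without Sham replicate 11. Gsdmd ran from 12.3 to 12.9 CPM, 16.6 to 20.4 CPM and 10.3 to 15.8 CPM, with -0.34 ± 0.23, 0.21 ± 0.22 and -0.27 ± 0.23 against Sham, none called. With library size alone the Gsdmd values were 0.41, 1.01 and 0.53, of which that for MI1h_F was called, and on the TPM scale 0.65, 1.21 and 0.74, all called. The signs for MI24h_F and MI6h_F thus turned, while the values stayed below the median of all genes, which was 0.06 and 0.04 with TMM, 0.81 and 0.84 with library size alone and 0.82 and 0.86 on the TPM scale. With TMM the MI24h_F value was -0.54 and called without Sham replicate 11.

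Bax was 26.9, 31.6 and 31.3 CPM in MI24h_F, 34.7, 31.1 and 27.6 CPM in MI1h_F and 25.9, 21.2 and 34.9 CPM in MI6h_F, which overlaps with Sham in all 3 groups. The log2 fold changes against Sham were 0.38 ± 0.25, 0.43 ± 0.25 and 0.25 ± 0.25 (edgeR adjusted p = 0.201, 0.165 and 0.417). They are called under other settings: 1.13, 1.24 and 1.05 with library size alone, 1.47, 1.62 and 1.35 on the TPM scale and 0.89, 0.79 and 0.69 with a trend on gene length removed, the last an alternative chosen after the data were seen. Without Sham replicate 31 the MI24h_F and MI1h_F values were 0.76 and 0.79 and called. Ppif was 36.3, 38.0 and 29.7 CPM in MI24h_F, 45.1, 61.0 and 73.9 CPM in MI1h_F and 59.0, 54.0 and 33.7 CPM in MI6h_F, all below Sham, and fell, with log2 fold changes of -2.40 ± 0.26, -1.61 ± 0.25 and -1.90 ± 0.26.

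**Figure D4:**
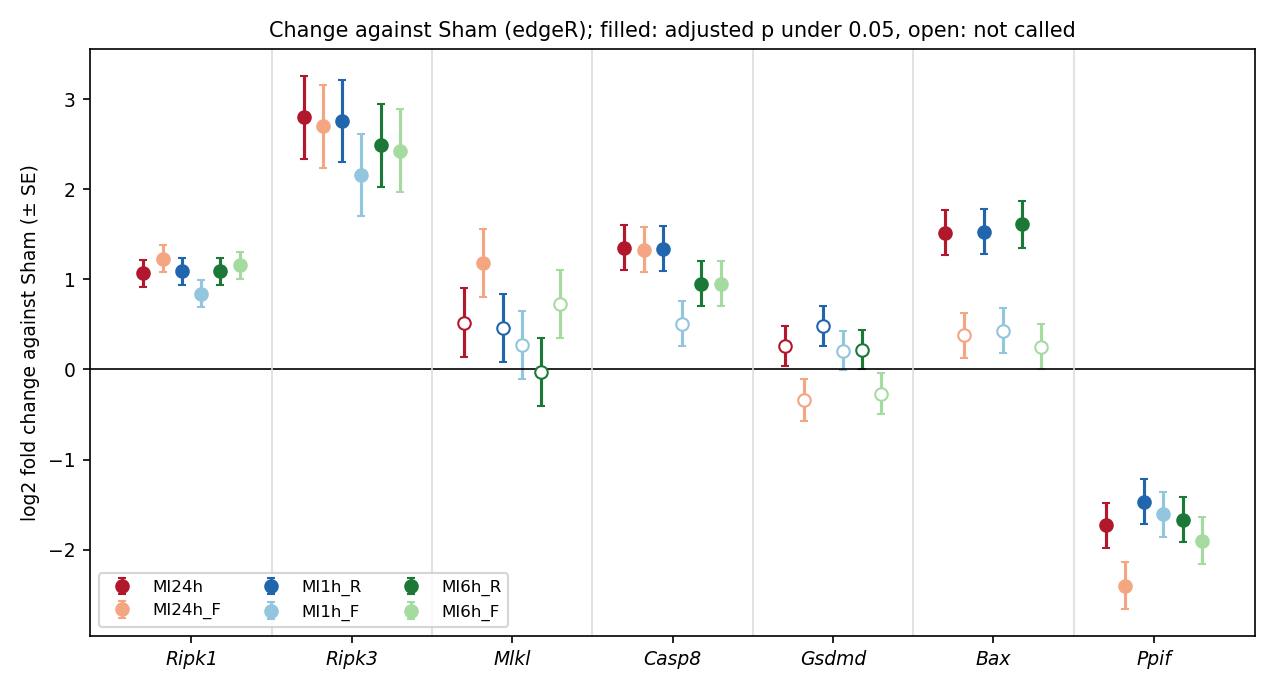
Log2 fold change against Sham of each of the 7 genes in the 6 injured groups, with the standard error of the edgeR fit as bars and filled points where called. Bax lies at 1.52, 1.53 and 1.61 in the groups without F and at 0.38, 0.43 and 0.25 in those with F.

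The effect of F was tested within each injury. Bax was the gene that was called: it fell by 1.14 ± 0.25 in MI24h_F against MI24h (edgeR adjusted p = 0.00873) and fell by 1.36 ± 0.25 in MI6h_F against MI6h_R (edgeR adjusted p = 0.00508). In MI1h_F against MI1h_R it had -1.10 ± 0.25 and was not called by edgeR (adjusted p = 0.0845), while DESeq2 called it (-1.08, adjusted p = 0.00634). In each injury all 3 libraries with F stood below all 3 without. Some marker sums also stood apart with F, while others overlapped, and their part was not tested. The summed level of 10 fibroblast markers was 7030 to 8180 CPM in MI24h and 11500 to 12600 CPM in MI24h_F, 7350 to 9080 CPM in MI1h_R and 12500 to 14300 CPM in MI1h_F, and 4690 to 11200 CPM in MI6h_R and 10400 to 13000 CPM in MI6h_F; 0, 0 and 4 of the 10 rose. Cardiomyocyte markers summed to 7430 to 10700 CPM in MI24h and 2830 to 4940 CPM in MI24h_F, and neutrophil markers to 1250 to 1480 CPM in MI6h_R and 787 to 1050 CPM in MI6h_F. Of 11 neutrophil markers 0 rose and 0 fell in MI6h_F against MI6h_R. The cardiomyocyte sums overlapped in MI1h and MI6h and the neutrophil sums in MI24h and MI1h. Endothelial markers summed to 960 to 1260 CPM in MI1h_R and 1380 to 1630 CPM in MI1h_F. T and NK cell markers summed to 180 to 236 CPM in MI1h_R and 91.2 to 135 CPM in MI1h_F. In this comparison 0 rose and 0 fell in each of these 2 lists, and both sums overlapped in MI24h and MI6h. For F, 1, 0 and 1 of 7 genes were called, where 13.0%, 0.0766% and 9.62% of all genes were, and where 7.78%, 0.0511% and 5.71% fell. At an unadjusted p under 0.05 there were 3, 2 and 2 of the 7, beside 3419, 1917 and 3060 of all 11742 genes. The MI24h value was -1.07 and no longer called without MI24h_F replicate 1 (edgeR adjusted p = 0.0555). Bax is shorter than most genes, with 8.01% of genes shorter. Across all genes, which are not independent replicates, Spearman's rho of the F effect with gene length was 0.17 in MI24h, 0.31 in MI1h and 0.04 in MI6h. With the length trend removed the 3 effects were -0.93, -0.89 and -1.32, of which the first and the last were called.

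None of the other 6 genes was called for F. Gsdmd was lower in all MI24h_F than in all MI24h libraries (-0.60 ± 0.22, edgeR adjusted p = 0.0861) and likewise in MI6h_F (-0.50 ± 0.22, edgeR adjusted p = 0.167), but not in MI1h_F (-0.27 ± 0.22). Ppif was lower in all MI24h_F libraries (-0.67 ± 0.25, edgeR adjusted p = 0.0865), where 4 of 11 cardiomyocyte markers also fell. In MI6h_F all Mlkl values lay above those of MI6h_R (0.76 ± 0.37, edgeR adjusted p = 0.204). The effects of F on Ripk3 were -0.10 ± 0.43, -0.60 ± 0.43 and -0.06 ± 0.43 and on Ripk1 0.16 ± 0.15, -0.25 ± 0.15 and 0.07 ± 0.15. Those on Casp8 were -0.02 ± 0.24, -0.83 ± 0.24 and 0.00 ± 0.24, with all MI1h_F libraries below all MI1h_R libraries.

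Whether F acted differently between injuries was tested by interaction, and edgeR called none of the 7 genes, beside 0.0%, 0.0% and 0.00852% of all genes. At an unadjusted p under 0.05 there were 1, 0 and 1 of the 7, beside 1990, 425 and 1551 of all 11742 genes. DESeq2 called 0 of the 7. For Bax the differences between F effects were 0.04 ± 0.35 for MI1h minus MI24h, -0.22 ± 0.35 for MI6h minus MI24h and 0.26 ± 0.35 for MI1h minus MI6h. The Casp8 differences were -0.81 ± 0.34 for MI1h minus MI24h (edgeR adjusted p = 0.253) and -0.82 ± 0.34 for MI1h minus MI6h (edgeR adjusted p = 0.338).

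Among the 109 genes of the 7 lists, 7 rose and 12 fell with F in MI24h, 7 rose and 4 fell in MI6h and none was called by edgeR in MI1h, where 20 had an unadjusted p under 0.05, DESeq2 called 5 and limma on TPM 0. Of all 11742 genes, 609 rose and 914 fell in MI24h and 460 rose and 670 fell in MI6h. In MI1h 1917 of all genes had an unadjusted p under 0.05, DESeq2 called 317 and limma on TPM 13. Of the 18 genes in the list of growth arrest and stress 3 fell and 0 rose in each of MI24h_F and MI6h_F. Gadd45a fell by 1.27 ± 0.22 and Phlda3 fell by 0.93 ± 0.17 in MI24h_F. In MI6h_F Cdkn1a fell by 1.47 ± 0.28 and Aen, a nuclease of apoptosis, fell by 1.04 ± 0.21. Bcl2l1, which restrains BAX, also fell by 0.84 ± 0.16 in MI6h_F. The ratio of Bax TPM to Bcl2l1 TPM was 1.19 to 1.33 in MI24h_F, 1.16 to 1.71 in MI1h_F and 0.903 to 1.43 in MI6h_F. The lowest of these, 0.903 in MI6h_F, lay within the Sham range of 0.479 to 0.905, while all MI24h_F and MI1h_F ratios lay above it. Casp1, the caspase that cuts gasdermin D, rose by 1.01 ± 0.25 in MI24h_F and 1.18 ± 0.25 in MI6h_F. The first was lost without MI24h replicate 41 or MI24h_F replicate 1, and the second without MI6h_F replicate 2. Other rises in MI24h_F and MI6h_F were those of Cyld (0.89 and 0.79), Tlr4 (1.02 and 0.83) and Dnm1l (0.63 and 0.66). Fas rose by 0.74 in MI24h_F and Casp12 by 1.17 in MI6h_F. In the other direction Tnfrsf25 of death receptor signalling (-2.1) and Stub1 of the necroptosis list (-0.75) fell in MI24h_F. Both were also called with library size alone (-2.09 and -0.72) and on the TPM scale (-1.29 and -0.70). Each of these calls was lost with some single libraries left out. With library size alone Cyld and Tlr4 had 0.74 and 0.77 in MI6h_F and were not called.

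**Figure D5:**
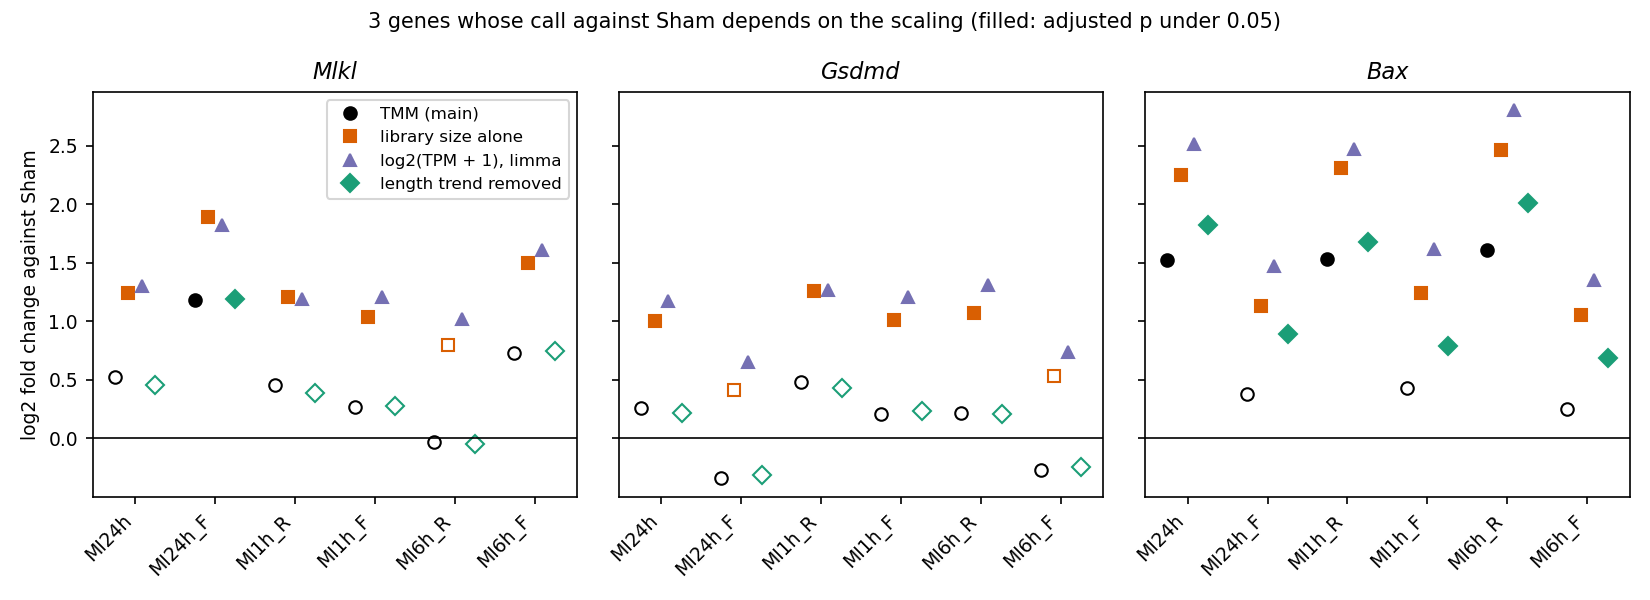
Log2 fold change against Sham of Mlkl, Gsdmd and Bax in the 6 injured groups with TMM, with library size alone, on the log2(TPM + 1) scale and with the length trend removed. Gsdmd in MI24h_F lies at -0.34 with TMM and at 0.65 on the TPM scale, and Bax in the same group at 0.38 and 1.47.

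Among the groups with F, edgeR called 2 of 7 genes in MI1h_F against MI24h_F, beside 15.6% of all genes; of all genes 8.87% rose and 6.74% fell. Casp8 fell by 0.82 ± 0.24 (edgeR adjusted p = 0.0299) and Ppif rose by 0.79 ± 0.25 (edgeR adjusted p = 0.0395). Both calls were lost without MI1h_F replicate 4 or 5 or MI24h_F replicate 1 or 2, and that of Ppif also without MI24h_F replicate 4, where Mlkl was called at -1.24. In the same comparison 10 of 11 cardiomyocyte and 6 of 10 fibroblast markers rose and 8 of 11 neutrophil markers fell, and their part was not tested. Il1b (-2.53 ± 0.49), Birc3 (-1.23 ± 0.24) and Bnip3 (-1.53 ± 0.36) fell there. None of the 7 genes was called in MI6h_F against MI24h_F or in MI1h_F against MI6h_F, beside 0.485% and 0.0% of all genes. Of the 7, 0 and 2 had an unadjusted p under 0.05, beside 1104 and 1597 of all 11742 genes. DESeq2 called 0 of the 7.

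Levels of different genes can be set side by side per length, in TPM (mean ± SD, n = 3). In Sham Ppif stood highest at 74.2 ± 5.83, then Bax at 22.2 ± 8.87, and below them Gsdmd at 5.56 ± 1.95, Mlkl at 4.33 ± 2.32, Ripk1 at 3.72 ± 1.19, Ripk3 at 3.45 ± 3.60 and Casp8 at 2.46 ± 0.914. The ranges of these lower genes overlapped, except that Gsdmd (4.42 to 7.82) lay above Casp8 (1.82 to 3.51). In MI24h Bax stood highest at 126.0 ± 11.4, followed by Ripk3 at 46.5 ± 9.75 and Ppif at 46.1 ± 4.81, which did not differ beyond their spread. Ripk1 at 15.4 ± 2.82, Gsdmd at 13.6 ± 2.95, Casp8 at 12.5 ± 5.15 and Mlkl at 12.2 ± 5.40 overlapped with each other. In MI24h_F Bax was at 60.7 ± 6.01, Ripk3 at 43.7 ± 7.68 and Ppif at 28.8 ± 4.09, and Gsdmd was lowest at 9.01 ± 0.278.

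Likeness was measured as Pearson's r of TMM log2 CPM over the 21 libraries, which share the step from Sham to injury, among 8104 genes, and is given as a description. Most like Ripk3 was Clic1, with r = 0.978, or 0.833 over the 18 injured libraries, followed by Itgb2, the integrin chain of leukocytes, with 0.975 and 0.737. Most like Ripk1 was Lyn, a kinase of blood cells, with 0.943 and 0.764. Mlkl was nearest to Sp100, with 0.886 and 0.884, and Casp8 to Ifit1bl, with 0.92 and 0.85. Gsdmd was nearest to the ribosomal protein gene Rpl10a, whose counts are identical to those of RGD1566137, with 0.895 and 0.869. Bax was nearest to Ewsr1, with 0.975 and 0.98, and Ppif to Slc35f5, with 0.982 and 0.938, and next to Eci1, an enzyme of fatty acid oxidation, with 0.977 and 0.913. Among the 7 genes themselves, over the 18 injured libraries, r was 0.65 for Ripk1 and Ripk3, 0.82 for Ripk3 and Casp8, 0.76 for Gsdmd and Bax, and 0.45 for Ripk3 and Mlkl. Other pairs were negative, among them Ripk1 and Ppif with -0.71, Mlkl and Bax with -0.40 and Mlkl and Gsdmd with -0.36.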

How the data were processed

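Bulk RNA sequencing of rat heart was used as 21 libraries in 7 groups of 3. Per the labels' protocols, RNeasy columns with DNase treatment gave the RNA, and NEBNext Ultra mRNA libraries were read on an Illumina HiSeq. STAR 2.7.3a, RSEM 1.3.1 and the build rn7 are named in the submitters' processing notes, which give no roles; annotation and strand setting are not given in the sources used here. The deposited tables hold estimated counts per gene symbol, all whole numbers, and TPM, which the authors scaled by gene length and library. Groups follow the titles, since the labels' group field does not separate F.

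Counts were filtered (filterByExpr), scaled by TMM and fitted over all 7 groups with edgeR 4.0.16 quasi-likelihood tests in R 4.3.3, with Benjamini-Hochberg adjustment over 11742 genes. There were 15 comparisons of 2 groups and 3 of F effects. TPM were tested as log2(TPM + 1) with limma 3.58.1 trend; such fold changes understate low genes. Other alternatives were DESeq2 1.42.0, library size alone, median-of-ratios factors, no filter, no mitochondrial genome genes, only the groups compared, a replicate block and each library left out; the length trend and the block with centred numbers were added after seeing the data. The fit was tested on simulated data. Figures used Python 3.11.15 and matplotlib 3.10.9.

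Total counts of 12208041 to 18393795 per library gave the 7 genes 23 to 1947 counts each. The labels do not say whether libraries are separate animals, so p-values measure the spread between these samples, which may be technical. The genes described and the 7 pathway lists (126 symbols, 110 with a row and 1 of these through an older name, 109 tested) were chosen with earlier results of these data known. List genes named are among the 4 called with the smallest p in each direction and comparison; Bnip3 in MI24h and the ratios of TPM were added after their values were seen. Some list genes are counted but not reported by name here. Casp6, Cycs and Itgam share identical counts with another symbol. Promoters are on GRCr8, another build than the files'.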

Additional observations from a re-analysis of the deposited data

How the results depend on the processing

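In the comparisons with Sham, Mlkl in MI6h_R (-0.03) became 1.02 on the log2(TPM + 1) scale, 0.80 with library size alone, 0.13 without MI6h_R replicate 31 and 0.31 without Sham replicate 11. Gsdmd became 0.65 on the TPM scale and 0.41 with library size alone in MI24h_F, 0.74, 0.53 and, without Sham replicate 31, 0.04 in MI6h_F, and -0.01 in MI1h_F without Sham replicate 11. No other value of the 7 genes against Sham changed sign under the alternatives run. TPM and library size alone leave out the TMM factors. The count of the 7 genes called moved from 3 to 7 in MI1h_F against Sham with library size alone and with TPM, and from 4 to 7 in MI6h_F against Sham with TPM. The count over all genes moved there from 5654 to 7666 and 8576, and from 6712 to 8645. In MI1h_F against MI24h_F the count of the 7 moved from 2 to 1 with library size alone and with TPM and to 5 with only the groups compared. Over all genes it was 1832 with TMM, 1728 with library size alone, 1846 with TPM and 3448 with only the groups compared. In MI1h_F against MI1h_R the count of the 7 moved from 0 to 1 with DESeq2, and that of all genes from 9 to 317. The cause was not tested. With each library left out in turn the counts were 5 to 5, 5 to 6 and 5 to 5 against Sham in MI24h, MI1h_R and MI6h_R, 4 to 6, 3 to 4 and 4 to 5 in MI24h_F, MI1h_F and MI6h_F, 0 to 2 in MI1h_F against MI24h_F and 0 to 1 in MI24h_F against MI24h.

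Libraries with the same replicate number did not deviate together: over 20 pairs the correlation of deviations ran from -0.54 to 0.32 with a median of -0.11, and 1 of 21 libraries correlated best with its own number. With the replicate number as a block, 0 of the 7 genes were called in MI1h_F against MI24h_F, in MI24h_F against MI24h and in MI6h_F against MI6h_R, where Bax had -1.05 (edgeR adjusted p = 0.213) and -1.37 (edgeR adjusted p = 0.102) in the latter 2, and Casp8 in MI6h_F against Sham had 0.91 (edgeR adjusted p = 0.0585). Numbers are not shared across F, and that fit takes such contrasts at the lowest number of each set. With the numbers centred within each set, an alternative chosen after the data were seen, Bax had -1.14 (edgeR adjusted p = 0.0826) in MI24h and -1.45 (edgeR adjusted p = 0.0403) in MI6h, which is 0 and 1 of the 7 genes called, with 0 in MI1h_F against MI24h_F. Of the other genes named for F, Gadd45a, Phlda3, Cdkn1a, Aen, Casp1, Cyld, Tlr4, Dnm1l, Fas, Casp12, Tnfrsf25 and Stub1 lost their call with the block and Bcl2l1 kept it. With centred numbers Gadd45a, Cdkn1a and Bcl2l1 were called. Il1b, Birc3 and Bnip3 in MI1h_F against MI24h_F and Cdkn1a in MI1h_R against MI24h lost their call with both. So did Tnfsf10 in MI24h against Sham.

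Over all genes, the number called ranged between settings from 3798 (only the groups compared) to 7889 (TPM) around 5809 in MI1h_R against Sham, from 2624 (replicate block) to 8576 (TPM) around 5654 in MI1h_F against Sham, and from 4205 (replicate block) to 8645 (TPM) around 6712 in MI6h_F against Sham. It ranged from 0 (only the groups compared) to 1073 (DESeq2) around 507 in MI1h_R against MI24h, from 5 (replicate block) to 196 (DESeq2) around 59 in MI6h_R against MI24h, and from 3 (replicate block) to 966 (TPM) around 283 in MI1h_R against MI6h_R. For the groups with F it ranged from 0 (replicate block) to 3448 (only the groups compared) around 1832 in MI1h_F against MI24h_F, from 0 (replicate block) to 206 (DESeq2) around 57 in MI6h_F against MI24h_F, and from 0 to 88 (DESeq2) around 0 in MI1h_F against MI6h_F. For F it ranged from 1 (replicate block) to 2064 (DESeq2) around 1523 in MI24h, from 1 (replicate block) to 317 (DESeq2) around 9 in MI1h, and from 70 (replicate block) to 1737 (DESeq2) around 1130 in MI6h. DESeq2 called 226, 1 and 57 genes for the interactions, where edgeR called 0, 0 and 1. With 3 libraries a group, the standard errors of Ripk3 and Mlkl limit what could be detected more than those of Ripk1.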
